A study of Homo sapiens with 10 samples.

Results

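The CEP genes are human genes whose symbol is CEP, short for centrosomal protein, followed by a number. Their transcripts were followed between the proliferating and the senescent state of IMR90, a fibroblast line of fetal lung that has a normal, limited lifespan in culture. The centrosome is the main organising centre for microtubules in animal cells. It consists of a pair of centrioles in a protein matrix, is duplicated with each cell cycle, and in resting cells its older centriole can dock at the plasma membrane as the base of a primary cilium. CEP proteins are named for where they were found, not for a common ancestry, and they act in centriole duplication, in the appendages and cilium base of the older centriole, in the linker and matrix around centrioles, and in cell abscission. Senescent cells have left the cell cycle for good, so they no longer duplicate centrosomes.

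Members were chosen by name, as the probe sets for which the platform annotation gives exactly 1 gene symbol, being CEP and a digit. This gave 38 of the 19775 genes so named on the array (Affymetrix HG-U133 Plus 2.0), with 112 of its 54675 probe sets, on 18 chromosomes. The family itself was selected with the difference between senescent and proliferating arrays in these data known, so every value below is a description of that contrast and no p-value is given for a member. The name covers more than centrosomal proteins. Of the 38 genes, 35 encode proteins and hold 107 probe sets, CEP192P1 is a pseudogene with 3 probe sets, and CEP72-DT and CEP83-DT are divergent transcripts with 1 each. Another 3 probe sets name CEP170 together with its pseudogene CEP170P1 and were not members.

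The proliferating group held 5 arrays of cells at 28 population doublings, and the senescent group 5 arrays of cells at 90 population doublings. Both were grown at 3% oxygen with 10% serum, and the labels name no genetic change or drug in either. Senescent cells had been passaged until division stopped and then kept in dishes for 2 more weeks, with p16, cyclins and beta-galactosidase staining as the criteria. Senescence, number of doublings and time without division therefore cannot be told apart in this design. Whether a group's arrays stem from separate cultures is not stated, and their spread may be technical.

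Values are log2 signals, and a difference is the senescent mean minus the proliferating mean, so that 1 is a 2-fold change. Testing was limited to the 32732 probe sets that exceeded the 40th percentile of the array in 5 or more of the 10 arrays. It is called lower or higher where limma's adjusted p over all of these was under 0.05. A signal is termed low where it lay below the 60th percentile of its array (4.64 to 4.77) on all 5 arrays of a group, and the size of a fold from such a signal depends on the background correction. Levels of different probe sets are not comparable. In these bulk samples, fewer cells of a type and less RNA per cell cannot be told apart.

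Array medians lay between 3.05 and 3.12, and arrays correlated at 0.992 to 0.997 within a group and 0.940 to 0.947 between groups. All 8 fibroblast markers were on the array, with a log2 summed level of 16.81 to 17.01 in proliferating and 16.71 to 16.84 in senescent arrays. Endothelial, leukocyte and multiciliated cell markers had low signal in both groups, and no marker was at 0. Epithelial markers summed to 9.94 to 10.27 in proliferating and 9.41 to 9.68 in senescent arrays, smooth muscle markers to 12.94 to 13.27 and 13.39 to 13.58, and their part in the results was not tested. The 5 proliferation markers were all called lower, summing to 14.59 to 14.88 in proliferating and 11.00 to 11.43 in senescent arrays. The ACTB control's 3' minus 5' signal, a sign of RNA or labelling quality, was 2.07 ± 0.14 in proliferating and 2.32 ± 0.10 in senescent arrays (SD, n = 5 each) and did not overlap between them.

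Transcripts of the family were mostly lower in senescent arrays, and where both groups had clear signal the lower differences reached 22.9-fold, for CEP55. Of the 112 probe sets, 95 were tested, of which 64 were called lower, 7 higher and 24 neither. Over all tested probe sets 26.2% were called lower and 26.9% higher. The groups did not overlap for 59 of the tested members in the lower direction and 6 in the higher, against 21.3% and 23.2% of all tested probe sets. Calls of at least 2-fold numbered 43 lower and 5 higher, against 8.8% and 9.04% of all. Since the family was selected with this contrast known, nothing is read from these counts against the background.

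The median difference over all 112 members was -0.39, against 0.02 over all probe sets other than controls. Differences ran from -5.01 for CEP128 to 1.94 for a probe set of CEP95, with 89 below and 23 above 0. The other 17 members were not tested, had low signal in both groups and differed by -0.27 to 0.09. With the ACTB control's 3' minus 5' signal as a covariate, 57 members were called lower and 5 higher, with 10 lower and 2 higher calls lost and 3 lower calls gained. The background shares above belong to the fit without this covariate. Shares of all probe sets with it are not given here, so these counts have no background beside them. The lower calls lost were in CEP43, CEP68, CEP89, CEP152, CEP164, CEP250, CEP295 and CEP350, and the higher ones in CEP19 and CEP126. By gene, 27 genes had only lower calls, CEP126, CEP19 and CEP170B only higher calls, and CEP95 both. Such a count favours genes with several probe sets, and its share over all genes is not given here. With 1 probe set a gene, 24 of 35 tested members were called lower and 3 higher. Over all tested genes, 29.8% were called lower and 30.5% higher in that form. CEP76, CEP85L, CEP112 and CEP192P1 were tested without a call, and CEP131, CEP72-DT and CEP83-DT had no tested probe set.

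**Figure D1:**
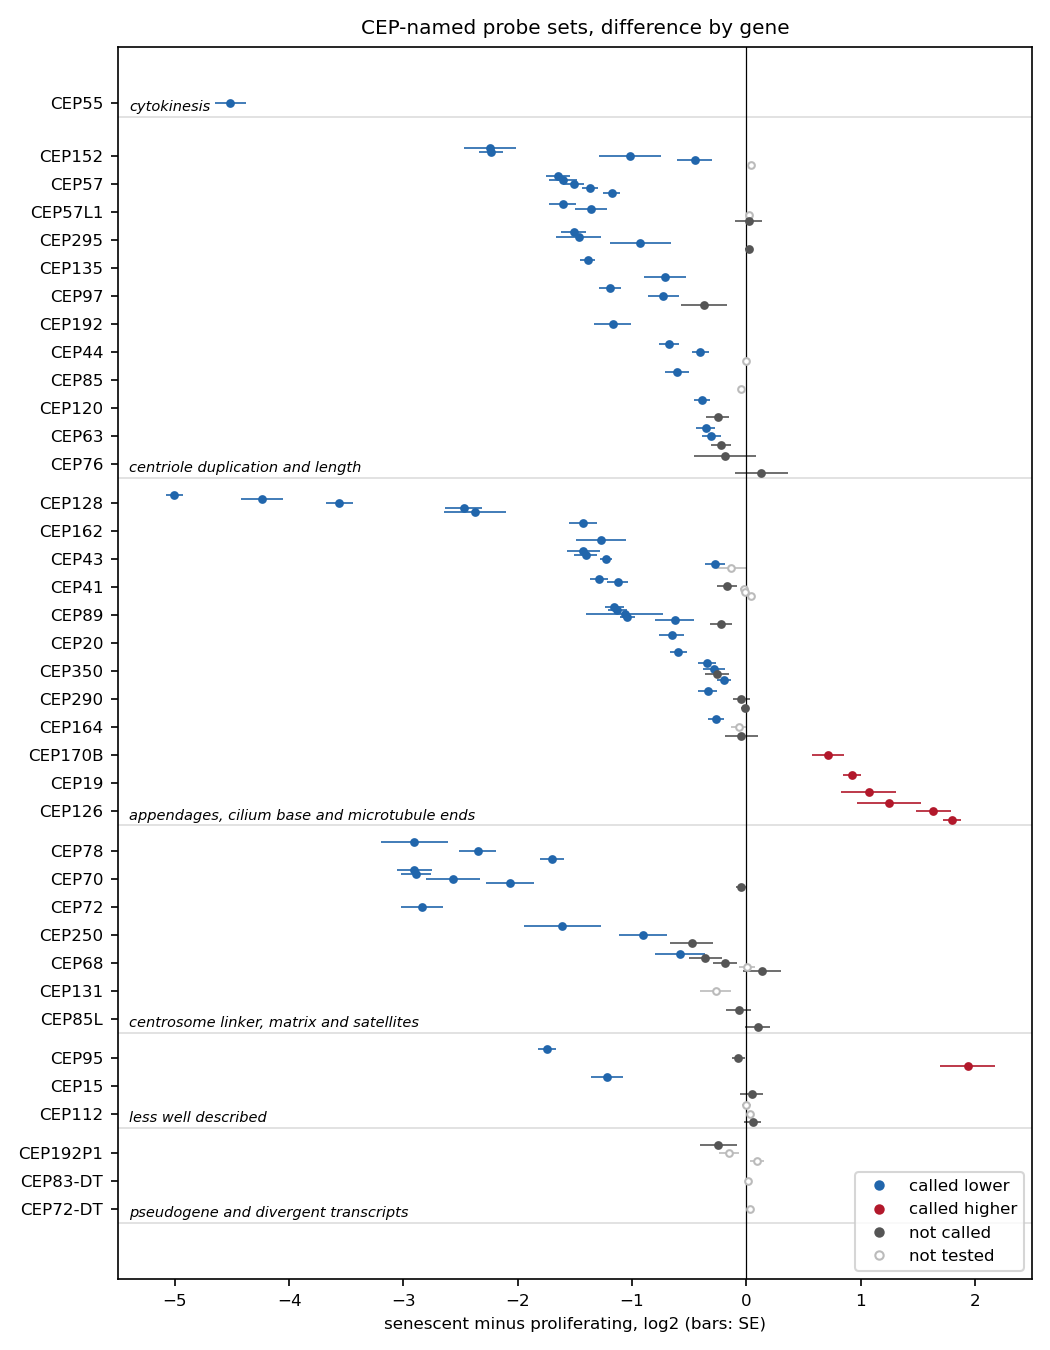
Senescent minus proliferating difference in log2 signal (x axis) for every CEP-named probe set, in rows by gene and blocks by role, coloured by call, with bars of 1 SE. Most marks lie left of 0, down to -5.01 for CEP128, while marks of CEP126, CEP19, CEP170B and CEP95 lie to the right, up to 1.94.

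The shift of the family was alike on all arrays of a group. The median over the 64 members called lower, taken on each array relative to the proliferating mean, was -0.09 to 0.09 on proliferating arrays and -1.29 to -1.22 on senescent arrays. Over all 112 members it was -0.07 to 0.07 and -0.51 to -0.39. No single senescent array thus carried the difference. That the first of these separates the groups follows from choosing members by their call.

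Promoter windows are shown for CEP55, CEP128, CEP70, CEP72 and CEP152, among the genes with the largest lower differences, and for CEP126 and CEP19, which were higher, so that the sequences at the start of genes on both sides can be compared. Each is the 300 bases from 250 before to 50 after a RefSeq gene start on GRCh38.p14, 5' to 3' on the gene's strand. Capitals mark matches to a CHR element (TTTGAA or TTCGAA) or a CCAAT box (CCAAT) on either strand. The CHR is the element through which the DREAM and MuvB complexes act on cell cycle genes, and CCAAT boxes bind NF-Y. E2F sites (TTTCCCGC, TTTGGCGC, TTTGCCGC or TTTCGCGC) were searched on both strands too, and none lies in the windows shown. Positions are those of the first base of a match, with +1 the first base of the gene and -1 the base before it.
CEP55 (chr10:93496362-93496661, plus strand) has CHR letters at -116 and -3 and a CCAAT box at -102.
CEP55: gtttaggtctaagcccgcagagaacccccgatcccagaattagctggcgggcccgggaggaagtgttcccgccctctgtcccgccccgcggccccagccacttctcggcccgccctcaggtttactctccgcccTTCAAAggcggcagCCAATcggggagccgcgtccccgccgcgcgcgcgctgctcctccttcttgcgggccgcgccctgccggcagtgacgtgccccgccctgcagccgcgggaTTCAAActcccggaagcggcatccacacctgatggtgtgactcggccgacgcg
CEP128 (chr14:80941689-80941988, minus strand) has no match to these letters.
CEP128: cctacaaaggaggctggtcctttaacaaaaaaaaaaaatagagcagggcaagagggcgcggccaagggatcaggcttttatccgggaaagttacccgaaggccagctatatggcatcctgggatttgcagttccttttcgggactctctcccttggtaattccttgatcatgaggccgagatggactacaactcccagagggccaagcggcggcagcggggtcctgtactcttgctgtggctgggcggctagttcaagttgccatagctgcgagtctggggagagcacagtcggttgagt
CEP70 (chr3:138594211-138594510, minus strand) has a CCAAT box at -51.
CEP70: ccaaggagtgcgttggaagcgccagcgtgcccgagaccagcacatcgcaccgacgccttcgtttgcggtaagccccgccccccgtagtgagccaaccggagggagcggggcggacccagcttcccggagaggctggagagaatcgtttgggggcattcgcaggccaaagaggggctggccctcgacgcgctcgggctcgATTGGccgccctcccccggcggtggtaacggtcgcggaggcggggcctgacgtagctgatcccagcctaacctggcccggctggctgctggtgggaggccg
CEP72 (chr5:612090-612389, plus strand) has CHR letters at +15, which lie also in the overlapping window of CEP72-DT on the opposite strand.
CEP72: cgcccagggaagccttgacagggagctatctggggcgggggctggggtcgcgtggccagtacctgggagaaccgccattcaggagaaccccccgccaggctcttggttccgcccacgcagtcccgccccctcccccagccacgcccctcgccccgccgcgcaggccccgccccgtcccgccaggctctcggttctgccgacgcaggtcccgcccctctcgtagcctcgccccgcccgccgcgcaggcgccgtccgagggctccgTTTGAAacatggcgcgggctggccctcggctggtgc
CEP152 (chr15:48811020-48811319, minus strand) has CHR letters at -179 and CCAAT boxes at -242 and -225.
CEP152: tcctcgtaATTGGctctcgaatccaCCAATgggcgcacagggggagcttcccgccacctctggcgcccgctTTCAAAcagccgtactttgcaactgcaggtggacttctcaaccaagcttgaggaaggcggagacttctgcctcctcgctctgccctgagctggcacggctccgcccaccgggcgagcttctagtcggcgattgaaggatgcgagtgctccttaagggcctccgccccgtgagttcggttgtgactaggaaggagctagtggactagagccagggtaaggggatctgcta
CEP126 (chr11:101914760-101915059, plus strand) has a CCAAT box at -68.
CEP126: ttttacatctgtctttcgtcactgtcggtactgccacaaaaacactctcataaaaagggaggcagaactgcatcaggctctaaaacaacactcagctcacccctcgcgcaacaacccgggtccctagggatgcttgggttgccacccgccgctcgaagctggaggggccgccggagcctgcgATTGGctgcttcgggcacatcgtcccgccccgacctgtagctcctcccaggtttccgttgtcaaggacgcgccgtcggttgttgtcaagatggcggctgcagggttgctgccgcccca
CEP19 (chr3:196712201-196712500, minus strand) has no match to these letters.
CEP19: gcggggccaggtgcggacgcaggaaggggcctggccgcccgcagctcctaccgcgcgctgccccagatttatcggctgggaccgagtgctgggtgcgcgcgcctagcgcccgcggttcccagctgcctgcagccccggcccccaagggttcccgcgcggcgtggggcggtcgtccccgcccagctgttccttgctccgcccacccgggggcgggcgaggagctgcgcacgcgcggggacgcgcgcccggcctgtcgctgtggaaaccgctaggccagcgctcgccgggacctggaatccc

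Windows were given for 33 of the 38 genes, 41 in all because 7 genes have several starts. CHR letters lie in 16 of the 41 windows (39.0%) and in 16.4% of the 35116 windows of all genes. CCAAT boxes lie in 19 (46.3%, against 34.6% of all), and E2F letters in 7 (17.1%, against 3.31% of all). Some windows overlap, so a match can count more than once. A CHR match is shared by the windows of CEP76, another by CEP72 and CEP72-DT, and an E2F match by windows of CEP112. Matches of different motifs do not overlap in these windows. Genes with large lower differences and the remaining genes both held each motif. Among the 16 matched genes with a call of at least 2-fold lower, 8 hold CHR letters, 11 a CCAAT box and 3 E2F letters, and among the 17 others 7, 6 and 3 do. The CHR match shared by CEP72 and CEP72-DT counts on both sides. A match is a run of letters and not a measured binding site.

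CEP55, the member of the family that acts in cell division itself, recruits the machinery that cuts the bridge between daughter cells. Its only probe set (218542_at) gave 11.62, 11.59, 11.62, 11.71 and 11.87 on proliferating arrays 1 to 5 and 7.31, 7.35, 7.47, 7.00 and 6.71 on senescent arrays 1 to 5. Every senescent array lay far below every proliferating array, but none had low signal. The mean went from 11.68 ± 0.11 to 7.17 ± 0.31 (SD, n = 5 each), a difference of -4.51 (SE 0.14) or 22.9-fold. Its window above carries a CHR on each side of the CCAAT box.

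Genes of centriole duplication and length control were lower or showed little difference, and none was called higher. This group held 12 genes with 36 probe sets, of which 32 were tested. Of these, 25 were called lower and 7 were not called, against 26.2% lower and 26.9% higher of all tested probe sets. The group's median difference was -0.70, with a range from -2.24 to 0.13. The lowest was CEP152, a scaffold that brings the kinase PLK4 to the centriole and so starts duplication. Its probe set 239413_at gave 8.07, 7.54, 8.01, 8.00 and 8.17 on proliferating and 5.98, 6.15, 5.41, 6.07 and 4.97 on senescent arrays. The groups did not overlap, and the mean went from 7.96 ± 0.24 to 5.71 ± 0.51, a difference of -2.24 (SE 0.23) or 4.73-fold lower. Other CEP152 probe sets differed by -2.23 with low senescent signal, by -1.02, and by -0.45 with low signal in both groups. An untested one differed by 0.04. The -1.02 call was lost with the ACTB covariate, and the -0.45 call without a filter and on leaving out some single arrays.

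CEP192, which works beside CEP152 in bringing PLK4 to the centriole and also builds the mitotic matrix, differed by -1.17, from 9.27 ± 0.35 to 8.10 ± 0.15. CEP63, a partner of CEP152, moved little, with -0.36, -0.31 and -0.22, the last not called. CEP57, another partner in the same ring around the centriole, was lower on all 5 of its probe sets, with differences of -1.65 to -1.18, and no array overlapped between groups. Its relative CEP57L1 differed by -1.60 and -1.36 on a pair of probe sets and by 0.02 on each of the other two, one not called and one untested. Members of this ring thus differed by unequal amounts on the same arrays.

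CEP295, needed for a new centriole to become a centrosome, differed by -1.51, -1.47 and -0.93 on called probe sets, the last with low senescent signal. An uncalled one, with low signal in both groups, differed by 0.03. CEP44, a protein of the centriole lumen needed for the same step, differed by -0.68 and -0.40, with an untested probe set at 0.00. CEP135, a part of the centriole's cartwheel region, differed by -1.39 and -0.71, the latter with low senescent signal. CEP97, which with CCP110 caps the growing end of the centriole, differed by -1.19 and -0.73, with -0.37 on an uncalled probe set. CEP120, which promotes elongation, differed by -0.38 and by an uncalled -0.25. CEP85, a binding partner of the duplication factor STIL, differed by -0.60 and by an untested -0.04. CEP76, which limits repeated duplication, was not called on either probe set, at -0.19 and 0.13. With the ACTB control as covariate both CEP76 probe sets were called lower, at -0.92 and -0.58, the second with its sign turned.

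Genes of the linker, the pericentriolar matrix and the satellites, the granules that carry proteins to the centrosome, held 7 genes and 20 probe sets. Of 18 tested, 11 were called lower and none higher, against 26.2% and 26.9% of all tested probe sets. The group's median difference was -0.74, with a range from -2.91 to 0.14. Placement by role was a choice, and the counts depend on it. CEP126, a pericentriolar protein with 3 probe sets called higher, was placed with the cilium base genes instead. CEP78, a protein of the mature centriole wall that gave 3 of the lower calls here, was among the lowest. Its loss causes a cone-rod dystrophy with hearing loss. Its probe set 228774_at gave 8.99, 8.60, 8.87, 8.83 and 9.39 on proliferating and 6.82, 6.35, 6.25, 5.55 and 5.18 on senescent arrays. Senescent arrays were spread more widely than proliferating ones, at 6.03 ± 0.66 against 8.93 ± 0.29, but did not reach them. The difference was -2.91 (SE 0.29), 7.5-fold lower, and the other two probe sets differed by -2.35 and -1.70.

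CEP70, a protein that binds gamma-tubulin and takes part in microtubule organisation, differed as much. Its probe set 1554489_a_at gave 9.11, 9.31, 9.22, 9.37 and 9.18 on proliferating and 6.81, 6.55, 6.32, 6.06 and 5.93 on senescent arrays. The highest senescent value stayed below the lowest proliferating value, and the mean went from 9.24 ± 0.10 to 6.33 ± 0.36, a difference of -2.91 (SE 0.15) or 7.49-fold lower. Further probe sets differed by -2.89, -2.57 and -2.07, the last with low senescent signal. Another, with low signal in both groups, differed by -0.04 and was not called.

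CEP72, a satellite protein, was measured by a single probe set (219531_at), which gave 8.27, 8.00, 7.86, 8.11 and 7.99 on proliferating and 4.64, 5.38, 5.68, 5.43 and 4.90 on senescent arrays. The groups were well apart, with 8.05 ± 0.15 against 5.21 ± 0.42, a difference of -2.84 (SE 0.19) or 7.16-fold lower. CEP72-DT, transcribed away from the same start region and sharing its promoter window, had low signal in both groups and differed by 0.03, untested.

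The linker that holds the centrioles together was lower in part. CEP250 anchors the linker at the centriole's near end and differed by -1.61 and -0.90, the latter with low senescent signal. An uncalled CEP250 probe set, with low signal in both groups, differed by -0.48. CEP68, another linker protein, had a single call, which was not stable. Its probe set 207971_s_at was the called member nearest the threshold, with 6.35, 5.84, 5.89, 6.02 and 6.54 on proliferating and 5.22, 6.01, 6.02, 5.38 and 5.08 on senescent arrays. The groups overlap, since senescent arrays 2 and 3 lie within the proliferating range, and the difference was -0.58 (SE 0.22). This call was lost in 12 of 21 alternatives, including the replicate block, no filter and the ACTB covariate (-0.83). It was also lost on leaving out proliferating array 1, 3, 4 or 5 or senescent array 1, 4 or 5, with differences of -0.64 to -0.46. Uncalled probe sets of CEP68 differed by -0.36, -0.19 and 0.14 and an untested one by 0.01. The uncalled member nearest the threshold was 233650_at of CEP63, with 10.34, 10.50, 10.36, 10.23 and 10.40 on proliferating and 10.24, 10.20, 10.17, 9.84 and 10.28 on senescent arrays. Its groups overlap too, with a difference of -0.22 (SE 0.09). The satellite protein CEP131 had low signal in both groups and was untested at -0.27, and CEP85L, a matrix protein, was not called at -0.07 and 0.10.

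**Figure D2:**
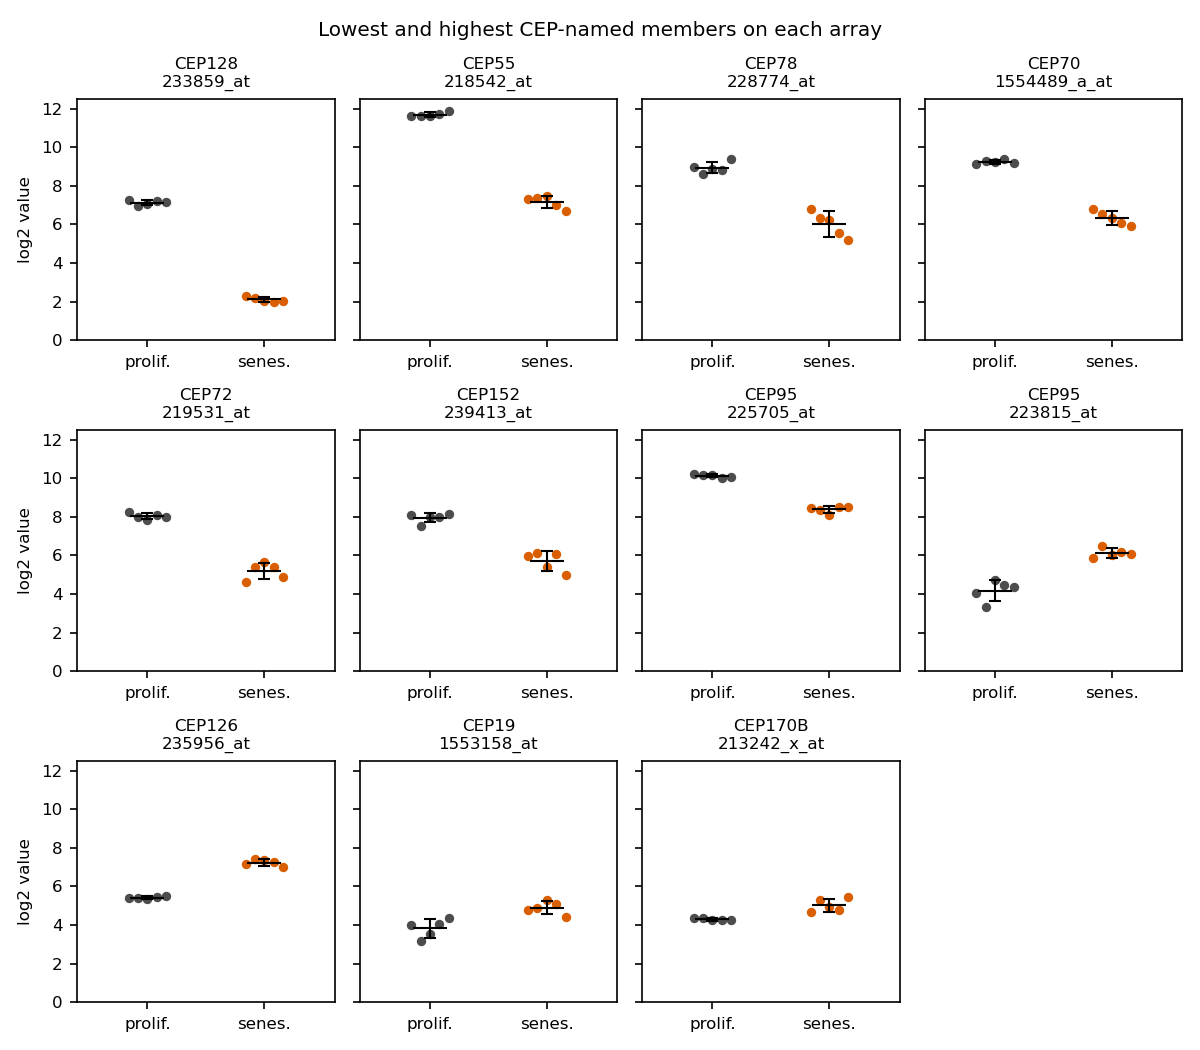
Log2 signal (y axis) on each proliferating and senescent array for the members with the largest lower and higher differences, with points for arrays and bars for the mean and SD of 5 arrays. Senescent points of CEP55, CEP128, CEP78, CEP70, CEP72 and CEP152 lie below all proliferating points, and those of CEP126, CEP19 and CEP170B above, while CEP95 appears with probe sets of either direction.

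Genes of the appendages, the cilium base and microtubule ends had calls in both directions. The group had 12 genes and 42 probe sets, with 37 tested, 25 called lower and 6 called higher, against 26.2% and 26.9% of all tested probe sets. Its median difference was -0.31 and its range -5.01 to 1.80. CEP128, which sits in the subdistal appendages that anchor microtubules on the older centriole, had the most negative difference as measured, against a low senescent signal that leaves its rank beside CEP55 unsettled. Its probe set 233859_at gave 7.25, 6.95, 7.06, 7.19 and 7.19 on proliferating and 2.28, 2.21, 2.04, 2.01 and 2.06 on senescent arrays. Senescent values were below the array medians, so the difference from 7.13 ± 0.12 to 2.12 ± 0.12, of -5.01 (SE 0.07), compares a clear signal with a low one. The other CEP128 probe sets differed by -4.24, -3.56, -2.47 and -2.37, all with low senescent signal. The -5.01 and -3.56 probe sets passed the filter through the proliferating arrays alone.

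CEP162, which binds axonemal microtubules and promotes the transition zone, differed by -1.43 and -1.27, the latter with low senescent signal. CEP89, a distal appendage protein that helps dock the older centriole, was lower on 5 probe sets, with differences of -1.15 to -0.63. An uncalled probe set at -0.22 had low signal in both groups. The -1.06 probe set of CEP89 had low senescent signal. That call and the -0.63 call of CEP89 were lost with the ACTB covariate. CEP164, another distal appendage protein and a standard marker of them, differed by only -0.26 on a probe set marked as shared. An uncalled CEP164 probe set at -0.04 and an untested one at -0.07 had low signal in both groups. The one call of CEP164 was lost with the ACTB covariate, at the same difference of -0.26. CEP128 and CEP164, both on appendages of the older centriole, differed by unequal amounts as measured. For CEP164 this rests on a single probe set with clear signal, and for CEP128 the size depends on a low senescent signal.

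CEP43, a protein of the cilium base and satellites also known as FOP, had probe sets that differed in size. Its probe set 205587_at gave 7.57, 7.30, 7.24, 7.34 and 7.54 on proliferating and 6.05, 6.26, 5.79, 5.52 and 6.27 on senescent arrays. This was lower on all senescent arrays, with a difference of -1.42 (SE 0.15). Further probe sets without overlap, both marked by name as shared between transcripts, differed by -1.41 and -1.23. Probe set 214124_x_at, also marked as shared, gave 10.61, 10.80, 10.70, 10.76 and 10.38 on proliferating and 10.36, 10.26, 10.28, 10.45 and 10.52 on senescent arrays. Its groups overlap through proliferating array 5, and it was called lower at -0.28 (SE 0.09), while an untested probe set differed by -0.13. CEP20, a small relative of CEP43, differed by -0.65 and -0.59. CEP350, a large centriolar partner of CEP43, differed by -0.34, -0.28 and -0.19, with an uncalled -0.26. The -0.34 and -0.28 calls of CEP350 were lost with the ACTB covariate. The -0.28 call was also lost without a filter and on leaving out some single arrays. CEP41, which takes part in tubulin glutamylation in cilia, differed by -1.29 and -1.13. Its uncalled -0.17 and untested values of -0.02 to 0.04 had low signal in both groups. CEP290, the transition zone gene mutated in several ciliopathies, differed by -0.34, with uncalled values of -0.04 and -0.01.

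Genes called higher included CEP126, a pericentriolar protein needed for cilium formation. Its probe set 235956_at gave 5.43, 5.39, 5.33, 5.47 and 5.52 on proliferating and 7.15, 7.42, 7.35, 7.24 and 7.00 on senescent arrays. All senescent arrays lay above all proliferating ones, and the mean went from 5.43 ± 0.07 to 7.23 ± 0.17, a difference of 1.80 (SE 0.08) or 3.49-fold higher. A further probe set differed by 1.64 (SE 0.15). The remaining one, with low proliferating signal, differed by 1.25 (SE 0.28), and its groups overlap because senescent array 5 stands apart at 3.90. With the ACTB covariate it was 0.86 and not called.

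CEP19, which brings the GTPase RABL2 to the cilium base together with CEP43 and CEP350, was also higher, by contrast with those partners. Its probe set 1553158_at gave 4.01, 3.16, 3.55, 4.05 and 4.39 on proliferating and 4.81, 4.87, 5.32, 5.10 and 4.42 on senescent arrays. The groups touch but do not overlap. The mean went from 3.83 ± 0.48 with low signal to 4.90 ± 0.34, a difference of 1.07 (SE 0.24) or 2.1-fold higher. With the ACTB control as covariate this difference was 0.64 and was not called. The brighter CEP19 probe set 230860_at gave 7.67, 7.68, 7.44, 7.58 and 7.65 on proliferating and 8.64, 8.54, 8.69, 8.46 and 8.30 on senescent arrays. It separated the groups more widely, with a difference of 0.92 (SE 0.08) or 1.9-fold higher.

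CEP170B, a relative of the subdistal appendage protein CEP170, was measured only by a probe set whose name (213242_x_at) marks it as able to match other transcripts. It gave 4.38, 4.36, 4.28, 4.25 and 4.25 on proliferating and 4.66, 5.29, 4.92, 4.76 and 5.45 on senescent arrays. Senescent arrays were all higher, from 4.30 ± 0.06 with low signal to 5.02 ± 0.34, a difference of 0.72 (SE 0.14) or 1.64-fold.

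CEP95, a protein whose role at the centrosome is not well described, had probe sets called in opposite directions. Probe set 225705_at gave 10.20, 10.19, 10.15, 10.03 and 10.07 on proliferating and 8.45, 8.36, 8.10, 8.51 and 8.50 on senescent arrays. It was lower on all senescent arrays, from 10.13 ± 0.07 to 8.38 ± 0.17, a difference of -1.75 (SE 0.08) or 3.35-fold lower. Probe set 223815_at gave 4.08, 3.31, 4.71, 4.45 and 4.36 on proliferating and 5.85, 6.50, 6.02, 6.19 and 6.07 on senescent arrays. It was higher on all senescent arrays, from 4.18 ± 0.54 with low signal to 6.12 ± 0.24, a difference of 1.94 (SE 0.24) or 3.83-fold higher. The third probe set, 243206_at, had low signal in both groups, 2.99 and 2.92, and differed by -0.07 (SE 0.06). Which transcripts of CEP95 each probe set matches was not analysed here.

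CEP15, also little described, gave 9.43, 8.82, 9.53, 9.29 and 9.50 on proliferating and 8.27, 8.26, 7.87, 7.98 and 8.08 on senescent arrays with 219288_at. The groups did not overlap, and the difference was -1.22 (SE 0.14). Its other probe set had low signal and was not called at 0.05. CEP112 differed by an uncalled 0.05 and untested 0.03 and 0.00. The pseudogene CEP192P1 was not called at -0.25 and untested at -0.15 and 0.09, and CEP83-DT was untested at 0.01. Every probe set of CEP192P1 and CEP83-DT had low signal in both groups. Probe sets of a gene mostly shared their direction where called. Of 28 genes with several tested probe sets, 9 had all of them called lower and 2 all called higher. In 14, calls in one direction stood beside uncalled probe sets, some of similar size and some with low signal, 2 had no call, and only CEP95 had calls in both directions. Of the 7 genes with a single tested probe set, 4 were called lower, 1 higher and 2 not.

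**Figure D3:**
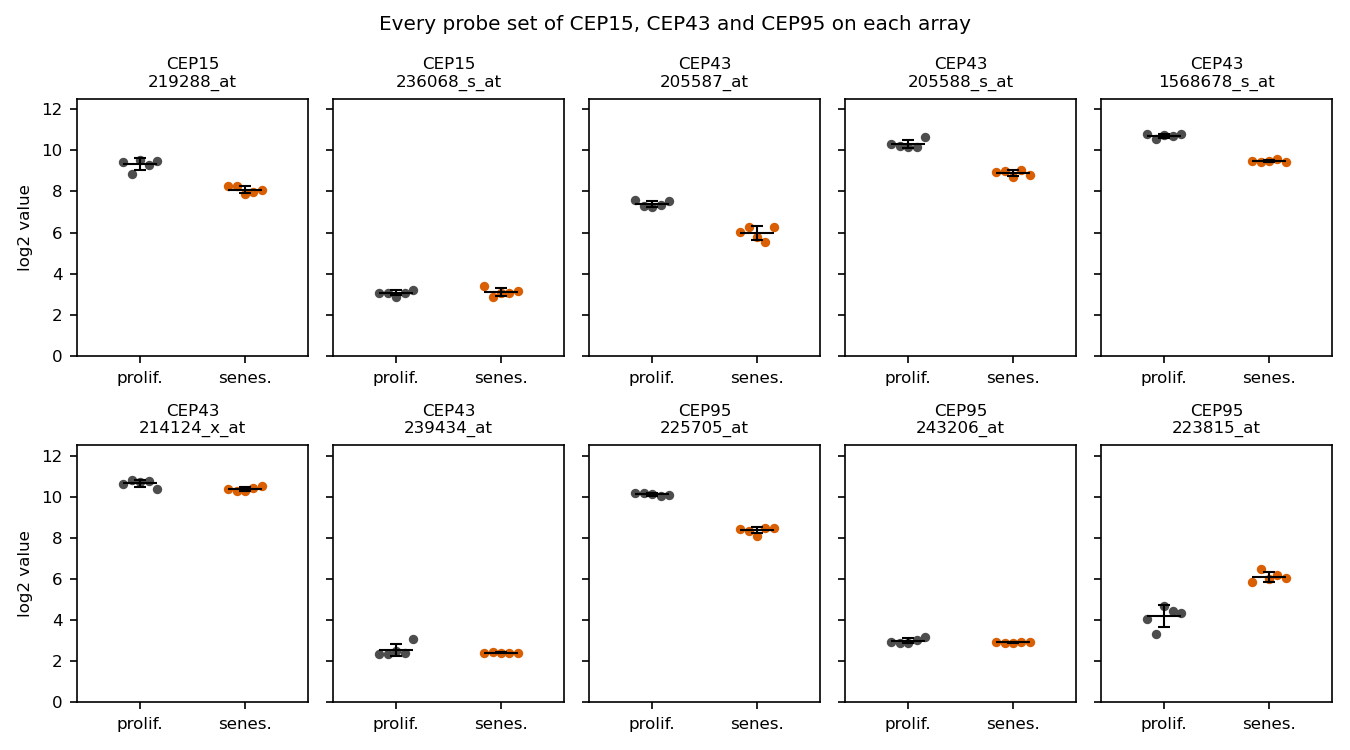
Log2 signal (y axis) on each proliferating and senescent array for every probe set of CEP15, CEP43 and CEP95, with points for arrays and bars for the mean and SD of 5 arrays. Panels of a gene disagree: CEP95 differs by -1.75 on the brightest of its probe sets and by 1.94 on another.

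To place the family beside the rest of its pathway, genes were compared through a single tested probe set each, the brightest on average over the 10 arrays. In this form 35 CEP-named genes were tested, with 24 called lower, 3 higher and 8 not called, and a median difference of -1.15. Over all 12909 tested genes, 29.8% were called lower and 30.5% higher, with a median of 0.04. A list of 70 other centrosome genes had 61 tested, with 45 called lower, 6 higher and a median of -0.87. Its lowest called genes were the centrosome kinase NEK2 (-6.34), the duplication kinase PLK4 (-5.12), the spindle protein HMMR (-4.52) and TACC3 (-4.43), which stabilises spindle microtubules. Its highest were the gamma-tubulin gene TUBG2 (1.12, with low proliferating signal), SSX2IP (0.96), a matrix and satellite protein, and the dynactin subunit DCTN1 (0.92).

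Of 65 listed cilium genes without a CEP name, 58 were tested, with 19 called lower and 18 higher, and a median of -0.13. These counts are near the background of 29.8% and 30.5%. The lowest called were the transport subunit IFT25 (-1.70), the ciliogenesis gene KIAA0586 (-1.56), the transport subunit IFT70B (-1.25) and the transition zone gene MKS1 (-1.12). The highest were the transition zone gene TMEM231 (1.45), the retrograde motor subunit DYNC2LI1 (1.37) and BBS12 (0.99), a chaperone for assembling the BBSome. Differences between these lists were not tested. With the housekeeping list as the reference, which lowered all differences by 0.13, cilium genes numbered 28 lower and 15 higher. Calls over all 32732 tested probe sets moved the same way, from 8562 lower and 8798 higher to 11678 and 6978.

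**Figure D4:**
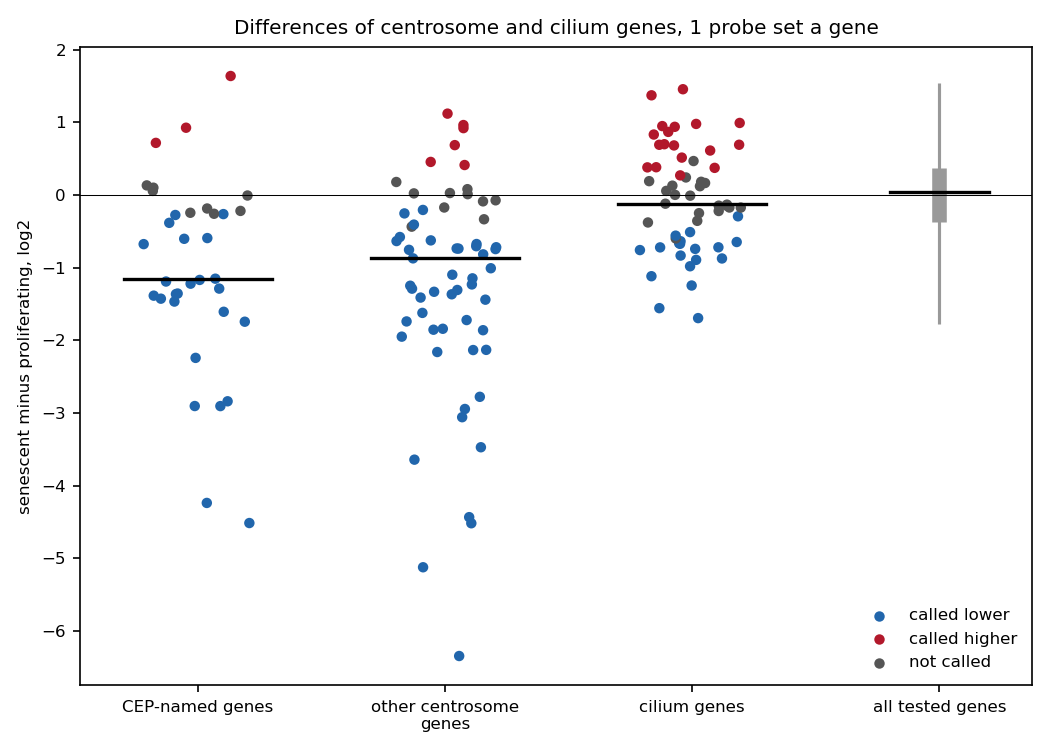
Senescent minus proliferating difference in log2 signal for single probe sets per gene, for CEP-named genes, other centrosome genes and cilium genes, coloured by call. Horizontal lines are medians, and the grey bar gives all tested genes, thick from the 25th to the 75th percentile (-0.37 to 0.37) and thin from the 5th to the 95th (-1.77 to 1.54). The medians are -1.15, -0.87 and -0.13, and that of all tested genes is 0.04.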

How the data were processed

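Trizol-purified total RNA of IMR90 cells was biotin-labelled and hybridised to arrays, per the labels' protocols. The deposited values are log2 values, 1 for each probe set and array. Per the submitters' processing notes, Partek and GCRMA were used, with no version. The sources used here give no settings for them. That the base is log2 was inferred from the value range. Scanner files were not used here, so scan batches and detection were not tested.

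Gene names came from the platform annotation, 41091 probe sets with 1 symbol, 1801 with several and 11721 with none. Another 62 were controls and left out. Differences were fitted with limma 3.58.1 (lmFit, eBayes; R 4.3.3) on all 10 arrays, two-sided, with Benjamini-Hochberg adjustment over 32732 probe sets. The members and gene lists were chosen with earlier results of these data known. Named genes were every member, with array values for the 7 lowest and 4 highest member genes, CEP95 and those nearest the threshold, and the 4 lowest and 3 highest called genes of the other lists. The fit was tested on simulated data with independent noise and far fewer changed probe sets, which is no test of its calls here. Promoter windows are from RefSeq (GRCh38.p14). Alternatives were other filters, scalings, model settings, probe set rules, a covariate and leaving out arrays. Data handling used the R package data.table, version 1.17.8, and motifs and figures used Python 3.11.15, pandas 2.3.3, numpy 2.4.6 and matplotlib 3.10.9.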

Additional observations from a re-analysis of the deposited data

Results flagged for a closer look

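Single arrays that stood apart from the other four of their group were searched for in all 224 groups of 5 arrays that the 112 members give, by the gap to the nearest array over the range. It was past Dixon's 95% critical value (0.71) in 31 of them, 21 in tested probe sets. Chance alone flags about 1 in 20 groups. Values are log2 signals.

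Each value is given against the nearest other array of its group. Among tested probe sets, proliferating array 1 stood apart for CEP89 1560599_a_at at 10.57 against 10.47. Proliferating array 2 stood apart for CEP120 1554606_at at 8.85 against 8.63, CEP152 239413_at at 7.54 against 8.00 and CEP76 52285_f_at at 6.10 against 6.93. Proliferating array 4 stood apart for CEP97 241836_x_at at 5.28 against 4.76. Proliferating array 5 stood apart for CEP43 205588_s_at at 10.63 against 10.29 and CEP192P1 235416_at at 3.92 against 3.17. Senescent array 1 stood apart for CEP250 209495_at at 3.57 against 3.38 and CEP70 238154_at at 3.17 against 3.01. Senescent array 2 stood apart for CEP89 1563919_a_at at 4.80 against 5.55 and CEP97 241836_x_at at 3.70 against 4.43. Senescent array 3 stood apart for CEP97 219886_at at 8.57 against 8.70. Senescent array 4 stood apart for CEP250 210894_s_at at 3.75 against 5.22, CEP41 225484_at at 7.20 against 6.91 and CEP63 233650_at at 9.84 against 10.17. Senescent array 5 stood apart for CEP295 1565829_at at 3.00 against 3.82, CEP135 206003_at at 8.89 against 9.12, CEP350 213957_s_at at 8.41 against 8.83, CEP44 228334_x_at at 8.40 against 8.59, CEP126 232166_at at 3.90 against 5.13 and CEP68 239442_at at 5.85 against 5.19. Counted with the untested probe sets, senescent array 5 stood apart 6 times and proliferating arrays 2 and 5 each 5 times, the most of the 10 arrays.

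Among probe sets that were not tested, all of them with low signal, proliferating array 1 stood apart for CEP68 1559159_at at 2.70 against 2.39. Proliferating array 2 stood apart for CEP164 204250_s_at at 2.24 against 1.92 and CEP131 214742_at at 2.84 against 2.27. Proliferating array 3 stood apart for CEP41 239322_at at 2.55 against 2.38. Proliferating array 4 stood apart for CEP44 241426_at at 2.70 against 2.63. Proliferating array 5 stood apart for CEP112 1557886_at at 2.71 against 2.55, CEP43 239434_at at 3.08 against 2.52 and CEP41 241166_at at 2.54 against 2.45. Senescent array 2 stood apart for CEP57L1 1560418_at at 2.16 against 2.20 and CEP192P1 1570444_at at 2.64 against 2.35.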

How the results depend on the processing

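No member changed from a lower to a higher call, or the reverse, under any alternative run. Calls numbered 7 higher among members in the main setting, and 4 with a filter at the 60th percentile. Without probe sets marked as shared between transcripts, 38 members were called lower, because only 60 were tested, and the median difference was -0.31. That median was -0.52 when centred on the housekeeping list, -0.58 with the ACTB covariate and -0.47 over 4 against 4 arrays (without proliferating 2 and senescent 5), the last chosen after seeing the data. Leaving out each array in turn gave -0.44 to -0.38, with 61 to 66 members called lower. Beyond the smaller number of probe sets or arrays in some of these, the cause was not tested. Centring on the housekeeping list lowered all differences by 0.13, and calls over all probe sets went from 8562 lower and 8798 higher to 11678 and 6978, with 76 and 7 among members. With a replicate block, 65 members were called lower and 7 higher. Same-numbered arrays deviated together with correlations of only -0.06 to 0.09, and 2 of 5 numbers matched best with themselves. Whether same-numbered arrays share more than a number is not stated, and these correlations cannot decide it. Of 303 alternative values for the 14 named probe sets, 283 stayed on the same side of the threshold, 13 lost a call (12 of them CEP68) and 7 gained one, and 0 reversed. The number of arrays and low signal near the background limit the precision.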

Other observations

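Subgroups of the pathway lists, drawn by symbol after their values were seen, are given beside the 29.8% of all tested genes called lower and the 30.5% called higher. Of 7 tested subunits of augmin (HAUS), which nucleates branching microtubules in the spindle, 6 were called lower and 0 higher, from -3.06 to -0.07. Genes of the gamma-tubulin complex had 4 lower and 1 higher calls among 8. The BBSome and its chaperones serve to carry membrane proteins in cilia. Of 8 tested genes with a BBS symbol, 0 were called lower and 6 higher, from 0.19 to 0.99. Listed BBSome-related genes under other symbols included MKKS, called lower at -0.51, TTC8, not called at -0.22, and ARL6, called higher at 0.69. Genes with an IFT symbol, for intraflagellar transport, had 9 lower and 2 higher calls among 16. Listed transport genes under other symbols included TRAF3IP1, called higher at 0.38, and WDR19, WDR35 and CLUAP1, not called at 0.24, -0.36 and 0.00. Tectonic (TCTN) genes of the transition zone had 0 lower and 2 higher calls among 3. These counts are descriptions of lists chosen after their values were seen.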
